A study of Rattus norvegicus with 6 samples.

Results

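Antigen presentation genes were compared between pancreatic islets of 3-month-old and 12-month-old rats. The genes were *Cd74*, *RT1-Da*, *RT1-Ba*, *RT1-Bb*, *RT1-Db1*, *RT1-DMa*, *RT1-DMb*, *B2m*, *Tap1* and *Tap2*, 10 of the 13903 named genes that had a probe. They were chosen by name, as genes of the machinery that shows peptides to T cells, with earlier results of these data known. A probe was taken for a gene where its RefSeq accession led to the gene's symbol. The 10 genes had 11 probes, and the brightest probe of a gene stands for it. All animals were male Wistar rats with no treatment named in the labels. The islets, which hold the hormone cells of the pancreas, were freed with collagenase and their RNA was put on 1-colour Agilent arrays, with 3 arrays at 3 months of age and 3 at 12 months. Whole islets hold resident immune cells, vessel cells and some exocrine tissue besides hormone cells, so fewer cells of a type and less RNA per cell cannot be told apart.

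Class II molecules display peptides from outside the cell and are known mainly from macrophages, dendritic cells and B cells, and in a healthy islet from its resident macrophages. An alpha and a beta chain (here RT1-D and RT1-B, the rat forms of HLA-DR and HLA-DQ) are held by the invariant chain Cd74 until the DM molecule exchanges the last piece of Cd74 for a peptide. Class I molecules are made by nearly all nucleated cells, where Tap1 and Tap2 pump peptides from the cytosol to a heavy chain bound to beta-2 microglobulin, the product of *B2m*.

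The arrays of each age had their own scan, so an effect of the scan and an effect of age cannot be told apart here. The scanner software marked 73.0% to 77.4% of probes as well above background on the 3-month arrays and 59.5% to 64.2% on the 12-month arrays. Negative control spots had a median signal of 29.5 to 31 scanner units at 3 months and 89.5 to 91 at 12 months. The islet label was checked on hormone cell markers: 10 of 12 listed genes had a probe, and all 10 were measured at both ages, with a mean log2 level of 16.7 to 16.9 at 3 months and 17.3 to 17.5 at 12 months. Among these markers *Slc30a8*, a zinc transporter of insulin granules named here after its values were seen, rose by 3.71 on the log2 scale (adjusted p = 0.00904, limma), while the median over the 10 was 0.25. Acinar (exocrine) transcripts were also measured, with a mean log2 level of 17.2 to 18.1 at 3 months and of 17.1 to 18.3 at 12 months. The study names 3 rats of each age for the 3 arrays, so p-values measure the spread between these few animals.

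None of the 10 genes passed an adjusted p of 0.05 (limma, Benjamini-Hochberg adjustment over 17941 probes), against 8.37% of all tested probes. At an unadjusted p under 0.05 there were 2, *B2m* and *Tap2*. At least 22.0% of all tested probes reached that level, the share that also had a fold above 2. The study's own threshold asked for a fold above 2 and an unadjusted p under 0.05, and it was passed by 1 of 10 genes, *Tap2*, against 22.0% of all tested probes. The p was limma's here. With the paired test that the study's supplement names, 0 of the 10 genes passed, *Tap2* included, and 1552 of all probes. The 3 arrays of an age lay wholly above those of the other for 2 of 10, *B2m* and *Tap2*, both higher at 12 months, against 39.1% of all tested probes in either direction. The median difference, 12 months minus 3 months on the log2 scale, was -0.19 over the 10 genes (4 positive and 6 negative) and -0.17 over all tested probes (7537 positive and 10404 negative). The median of the 10 genes changed sign with single arrays, lying at 0.12 when 12-month replicate 2 was left out, at 0.03 and 0.05 when 3-month replicate 1 or 3 was, and at -0.45 when 3-month replicate 2 was. Without 12-month replicate 2, the array on which 7 of the 10 genes had their lowest 12-month level, 2 genes passed the adjusted threshold, *Cd74* and *Tap2*. The share of all tested probes with their lowest 12-month level on that array was not counted. All 10 genes passed the filter on low values, and all but *Cd74* were well above background on all 6 arrays. Their levels on each array are quantile-normalized log2 intensities, and levels of different genes are not set against each other because probes differ in brightness.

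**Figure D1:**
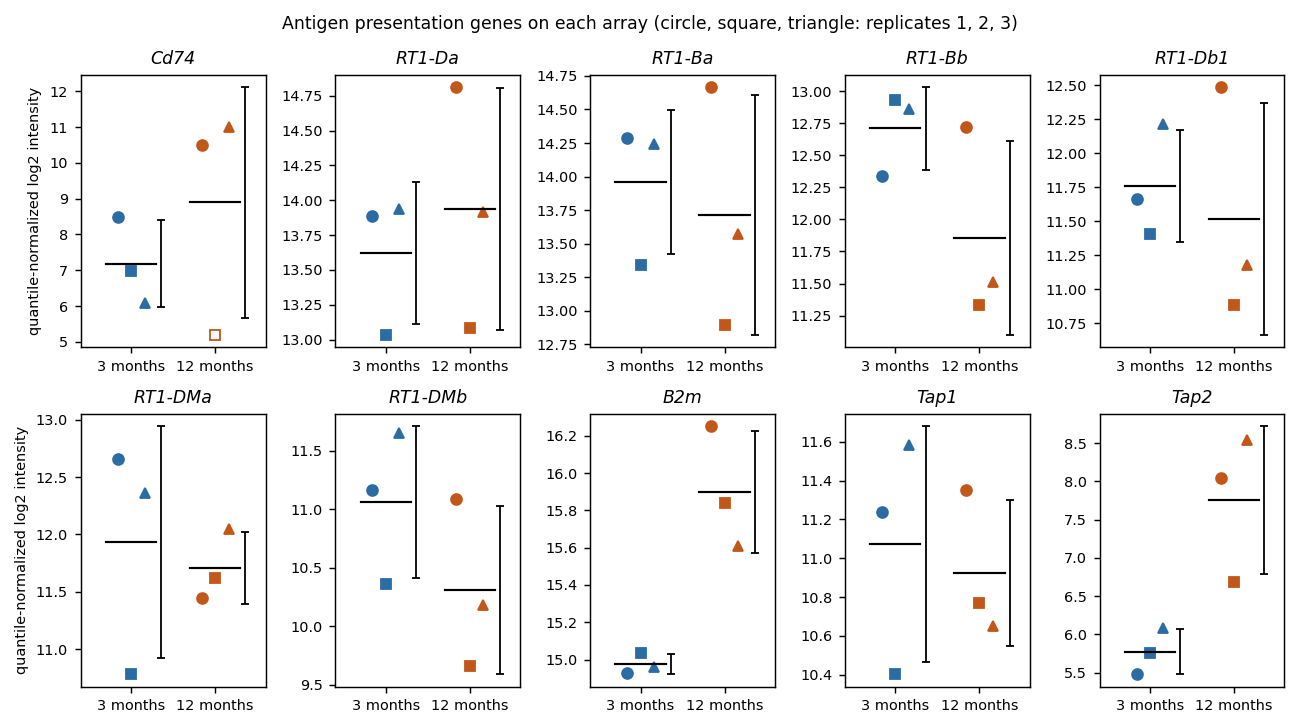
Quantile-normalized log2 intensity (vertical axes, each with its own range) of the 10 antigen presentation genes on the 3 arrays of each age (blue, 3 months; orange, 12 months; circle, square and triangle, replicates 1, 2 and 3; open marker, not well above background). Black lines are means and bars are ± 1 SD (n = 3). The ages are apart for *B2m* and *Tap2* and overlap for the other genes, and *Cd74* spans 5.19 to 11.02 at 12 months.

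The promoters of the class II chains hold the X and Y boxes, short elements that are known to bind the RFX complex and NF-Y and to bring in the master regulator Ciita, which does not bind DNA itself. RefSeq promoters (assembly GRCr8, 250 bases before each gene's start) were given for 9 of the 10 genes and not for *RT1-DMb*. They were searched on both strands for ACNGATG, letters of the X box, and GATTGG, letters of the Y box, which can share at most their end bases and share none in the stretches printed here. The stretches are printed because they carry the element through which class II genes are known to be switched on together, and the capitals mark the letters found. Each has 54 bases, is read 5′ to 3′ on the gene's strand and begins 90 to 127 bases before the gene's start. *RT1-Da* lies on the plus strand at chr20:4515319-4515372, *RT1-Ba* on the plus strand at chr20:4576967-4577020, *RT1-Bb* on the minus strand at chr20:4604173-4604226, *RT1-Db1* on the minus strand at chr20:4560236-4560289 and *RT1-DMa* on the minus strand at chr20:4712393-4712446.
RT1-Da: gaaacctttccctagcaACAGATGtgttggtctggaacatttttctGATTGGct
RT1-Ba: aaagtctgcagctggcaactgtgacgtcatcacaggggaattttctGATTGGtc
RT1-Bb: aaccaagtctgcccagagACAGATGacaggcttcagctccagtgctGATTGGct
RT1-Db1: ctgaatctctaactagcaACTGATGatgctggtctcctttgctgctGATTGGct
RT1-DMa: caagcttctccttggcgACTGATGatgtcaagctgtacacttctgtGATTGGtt

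Each of the 5 stretches was cut to end just after a GATTGG, so that all of them hold it was fixed by the cut. Where a promoter had a GATTGG with ACNGATG before it, that GATTGG was taken. Of the 5 stretches, 4 held ACNGATG 28 or 29 bases before GATTGG, counted from first base to first base. ACNGATG was in 8.55% of 33469 rat promoters and GATTGG in 13.3%. ACNGATG followed by GATTGG within 40 bases on the same strand was in 35 promoters, 0.105% of all. The letters were chosen with these promoters in view, so the shares describe how common they are and no more. *RT1-Ba* did not match ACNGATG in this window, and *Cd74*, on chromosome 18, matched neither. Of the 9 promoters 6 held GATTGG, the 5 printed here and that of the class I gene *B2m*.

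None of the class II chains and DM subunits passed the test between the ages, and single arrays of an age lay far apart. Over the 6 genes the size of the age difference was 0.23 to 0.86 on the log2 scale, while the levels of 1 gene ranged over 0.61 to 1.77 within the 12-month arrays and over 0.59 to 1.87 within the 3-month arrays. Their adjusted p ran from 0.203 to 0.773 (limma). The alpha chain *RT1-Da*, which pairs with the RT1-D beta chains, read 13.89, 13.03 and 13.94 at 3 months and 14.81, 13.08 and 13.91 at 12 months on replicates 1, 2 and 3. Replicate 2 was the lowest of both ages, the ages overlapped, and the difference was 0.32 with a 95% interval of -0.85 to 1.48 (adjusted p = 0.670). Its beta chain partner *RT1-Db1* read 11.66, 11.40 and 12.21 at 3 months and 12.49, 10.88 and 11.18 at 12 months. The highest and the lowest of its 6 levels were both from 12-month rats, and the difference was -0.24 (-1.36 to 0.87, adjusted p = 0.736).

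The other alpha chain, *RT1-Ba*, read 14.29, 13.34 and 14.24 at 3 months and 14.67, 12.90 and 13.57 at 12 months on replicates 1, 2 and 3. It overlapped between the ages, with replicate 2 lowest in each, and differed by -0.25 (95% interval -1.45 to 0.96, adjusted p = 0.754). Its beta chain *RT1-Bb* read 12.34, 12.93 and 12.86 at 3 months and 12.72, 11.33 and 11.51 at 12 months. For *RT1-Bb*, 2 of the 12-month levels lay below all 3-month levels and the other lay among them, and the difference of -0.86, the lowest among the 10 genes, had an interval of -1.85 to 0.14 (adjusted p = 0.203). Without 12-month replicate 1 it was -1.29, past the study's threshold, with an adjusted p of 0.126. When each array was shifted to a common 75th percentile in place of quantile normalization, *RT1-Bb* also passed the study's threshold, at -1.09 (adjusted p = 0.104). That scaling moved the median of all tested probes from -0.17 to -0.40.

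DM, which edits the peptides that class II molecules carry, is made of the products of *RT1-DMa* and *RT1-DMb*. *RT1-DMa* read 12.66, 10.78 and 12.37 at 3 months and 11.44, 11.62 and 12.05 at 12 months on replicates 1, 2 and 3. All 12-month levels lay within the range of the 3-month levels, and the difference was -0.23 (95% interval -1.44 to 0.99, adjusted p = 0.773). *RT1-DMb* read 11.17, 10.36 and 11.65 at 3 months and 11.08, 9.66 and 10.19 at 12 months. The ages overlapped, and *RT1-DMb* differed by -0.75 (-1.88 to 0.38, adjusted p = 0.305). It passed the study's threshold without 12-month replicate 1 (-1.14, adjusted p = 0.231).

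*Cd74*, the invariant chain, had the widest spread of the 10 genes. It read 8.48, 6.99 and 6.08 at 3 months and 10.50, 5.19 and 11.02 at 12 months on replicates 1, 2 and 3. The level of 5.19 was not well above background, so that 12-month replicate 2 lay below all 3-month arrays while the other 12-month arrays lay above them. Its mean was 7.18 ± 1.21 at 3 months and 8.90 ± 3.22 at 12 months (SD, n = 3 of each age). The difference of 1.72 had a 95% interval of -1.94 to 5.37 (adjusted p = 0.457). Without 12-month replicate 2 the difference was 3.57 with an adjusted p of 0.0327 (limma), the only one of 17 alternatives in which *Cd74* passed the adjusted threshold. Over the others it ran from 0.11, in the fit to the numbered pairs of arrays, to 2.36, without 3-month replicate 1.

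The array profile of *Cd74* was set beside those of all other genes by its size as well as its shape. After each gene was centred on its mean over the 6 arrays, the root mean square difference between *Cd74* and *RT1-Da* was 1.80 on the log2 scale, rank 894 of 11147 genes compared with *Cd74*. The measure is not scaled, so the wide range of *Cd74* enters it. The 5 genes closest to *Cd74* were *Kcnn4* (0.50), *Eef1d* (0.53), *Rpsa* (0.58), *U2af1l4* (0.58) and *Tbc1d17* (0.59), and the closest of the other antigen presentation genes was *Tap2*, rank 492. On 12-month replicate 2 all of these 5 but *Rpsa* read 2.06 to 3.15. That is below the lowest 12-month signals well above background, 4.26 to 5.13, so their likeness rests partly on readings at the floor. *Rpsa*, a protein of the small ribosomal subunit, read 10.54, 8.81 and 7.40 at 3 months and 11.94, 6.68 and 14.04 at 12 months on replicates 1, 2 and 3. It shared with *Cd74* the low levels on 12-month replicate 2 and 3-month replicate 3. Those are also the arrays with the lowest mean of the acinar markers, 17.1 and 17.2, whose part in the result was not tested.

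With *RT1-Da* as the reference, chosen after its values were seen, the closest genes were *Or9s27* (0.15), *Ncf1* (0.17), *Hmox1* (0.19), *Lgals3* (0.21) and *Fcnb* (0.22). *RT1-Ba* was rank 15 (0.29) and *RT1-Db1* rank 48 (0.37), with *Tap1* at rank 96 (0.43). *RT1-DMb* was rank 610, *B2m* 1061, *RT1-DMa* 3500, *RT1-Bb* 4617, *Tap2* 8512 and *Cd74* 10996. These likenesses rest on 6 arrays and are given as a description, with no test.

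**Figure D2:**
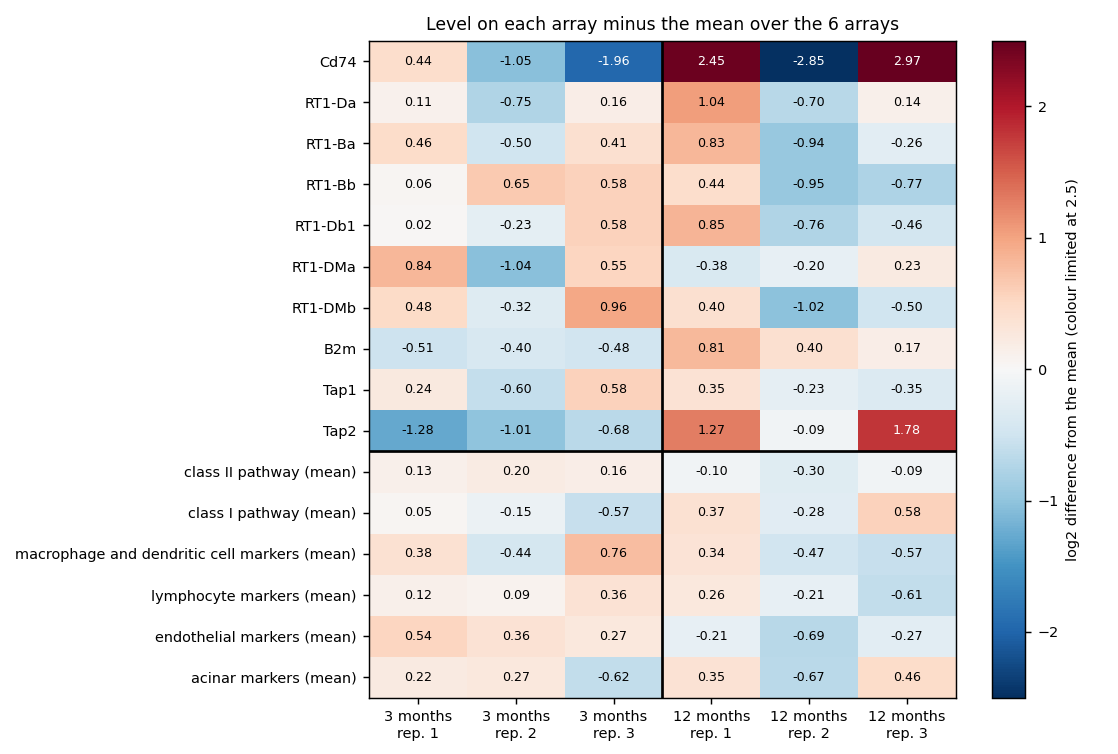
Level on each array minus the mean over the 6 arrays (log2, colour and printed number; colour limited at 2.5 either way) for the 10 antigen presentation genes and for the mean of 6 gene lists, with 3-month arrays left and 12-month arrays right of the line. *RT1-Da*, *RT1-Ba* and *RT1-Db1* share high values on 12-month replicate 1 and low values on replicate 2 of both ages, and *Cd74* has the widest span.

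Among the class I genes, *B2m* and *Tap2* had higher levels on every 12-month array than on any 3-month array, while *Tap1* overlapped. *B2m*, the light chain of all class I molecules, read 14.93, 15.04 and 14.96 at 3 months and 16.25, 15.84 and 15.61 at 12 months on replicates 1, 2 and 3. The 3-month levels lay within 0.11 of each other and the lowest 12-month level was 15.61. The difference was 0.92 ± 0.25 (SE, n = 3 of each age), 1.90-fold, with a 95% interval of 0.32 to 1.53. Its unadjusted p was 0.00862 and its adjusted p 0.0677 (limma), short of the threshold. *B2m* was the only one of the 10 genes with a second probe, printed on 1 spot against 10 for the first, and the second gave a difference of 0.91 with an adjusted p of 0.0710. Shifted to a common 75th percentile, *B2m* differed by 0.52 (adjusted p = 0.182), the lowest value over its 18 alternatives, of which 3 passed the adjusted threshold (adjusted p 0.0229 to 0.320 over all 18).

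*Tap2*, which codes for the second chain of the peptide transporter, read 5.49, 5.75 and 6.08 at 3 months and 8.04, 6.68 and 8.55 at 12 months on replicates 1, 2 and 3. The lowest 12-month level, on replicate 2, was still above the highest 3-month level, and all 6 were well above background. The difference was 1.98 ± 0.49 (SE, n = 3 of each age), 3.95-fold, with a 95% interval of 0.81 to 3.15, an unadjusted p of 0.00535 and an adjusted p of 0.0550 (limma). It passed the adjusted threshold in 3 of 18 alternatives, with differences of 1.30 to 2.52 and adjusted p of 0.0183 to 0.319 over all 18. Without 12-month replicate 2 it was 2.52 (adjusted p = 0.0183).

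*Tap1*, the partner chain, read 11.24, 10.40 and 11.58 at 3 months and 11.35, 10.77 and 10.65 at 12 months on replicates 1, 2 and 3. All 12-month levels lay inside the 3-month range, and the difference was -0.15 with a 95% interval of -1.05 to 0.75 (adjusted p = 0.801). The smallest p that an exact permutation test of 3 arrays against 3 allows is 0.1, reached by *B2m* and *Tap2*. For *Tap1* the exact permutation p was 0.9.

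**Figure D3:**
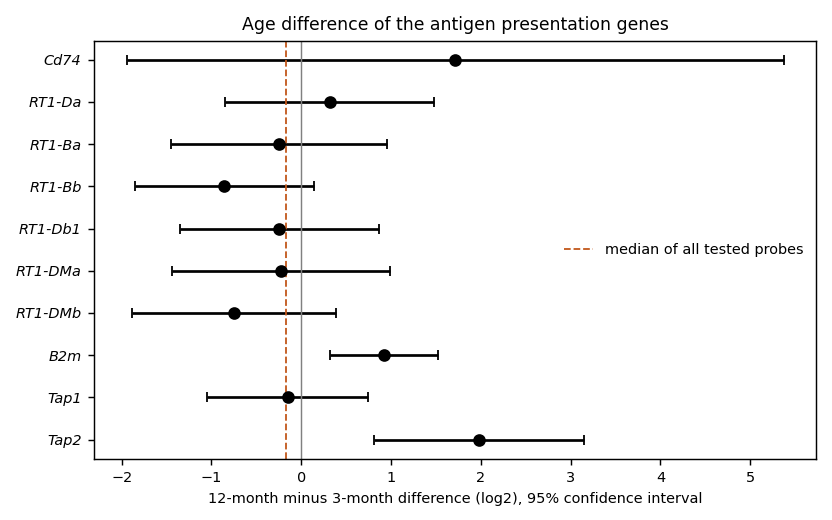
Difference between the ages, 12-month minus 3-month mean (horizontal axis, log2), of the 10 antigen presentation genes, with bars for the 95% confidence interval from limma (n = 3 of each age) and a dashed line at the median of all tested probes, -0.17. The interval leaves out 0 for *B2m* (0.32 to 1.53) and *Tap2* (0.81 to 3.15) and includes it for the other 8 genes.

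The promoters of *B2m*, *Tap1* and *Tap2* were searched on both strands for GAAA, any 2 bases and GAAA, the core of elements known to bind interferon regulatory factors. The 3 stretches are printed to show that element in the genes whose levels stood apart between the ages and in *Tap1*, whose levels did not. Capitals mark the letters found, each stretch has 34 bases and is read 5′ to 3′ on the gene's strand, and in *Tap1* the letters run on the opposite strand. In GRCr8 *B2m* lies on the plus strand at chr3:129549168-129549201, *Tap1* on the minus strand at chr20:4668643-4668676 and *Tap2* on the minus strand at chr20:4652316-4652349.
B2m: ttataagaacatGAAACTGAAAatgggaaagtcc
Tap1: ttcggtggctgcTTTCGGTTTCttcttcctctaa
Tap2: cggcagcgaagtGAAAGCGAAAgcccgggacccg

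The letters were found in these 3 promoters, in none of the other 6 and in 3.41% of the 33469 rat promoters. They were chosen with the promoters in view. A match does not show that a factor binds there, and the promoters with it belong both to genes that differed between the ages at an unadjusted p under 0.05 (*B2m*, *Tap2*) and to one that did not pass that level (*Tap1*).

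Of the other genes of the class II pathway, 18 of 19 listed had a probe and 17 passed the filter. None passed the adjusted threshold upwards and 1 downwards, *Rfxank*, a subunit of the RFX complex, 1 of 17 genes against 8.37% of all tested probes. *Rfxank* read 11.97, 11.58 and 11.78 at 3 months and 10.63, 10.72 and 10.65 at 12 months on replicates 1, 2 and 3. It fell by 1.11 ± 0.23 (SE) on the log2 scale with an adjusted p of 0.0347 (limma), the ages wholly apart, as for 39.1% of all tested probes. The other RFX subunits did not pass, with differences of -0.16 for *Rfx5* (adjusted p = 0.632) and -0.49 for *Rfxap* (adjusted p = 0.182). *Ciita*, the transactivator of class II genes, differed by -0.63 (adjusted p = 0.356) and was well above background on all 3-month arrays but only on replicate 1 at 12 months. The study's threshold was passed by 0 genes upwards and 2 downwards, *Rfxank* and the beta chain gene *RT1-Db2* (-1.31, adjusted p = 0.151), 2 of 17 genes against 22.0% of all tested probes. The median difference of the 17 genes was -0.49, with 5 positive and 12 negative.

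Of the other genes of the class I pathway, 40 of 57 listed had a probe and 36 passed the filter. *Canx*, the chaperone calnexin that holds new heavy chains, passed the adjusted threshold upwards, and none passed it downwards. That is 1 of 36 genes, against 8.37% of all tested probes. *Canx* read 3.83, 3.92 and 4.45 at 3 months and 5.30, 5.85 and 6.13 at 12 months on replicates 1, 2 and 3. It rose by 1.69 ± 0.32 (SE) with an adjusted p of 0.0279 (limma), from levels near the lowest signals that were well above background, 2.89 to 3.17 at 3 months and 4.26 to 5.13 at 12 months. The difference was 0.52 with normexp background correction (adjusted p = 0.0758) and 1.08 with the 75th percentile shift (adjusted p = 0.106), and over all 18 alternatives *Canx* passed the adjusted threshold in 6.

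At the study's threshold 5 of the 36 class I genes were higher at 12 months and 1 was lower, 6 in all, against 22.0% of all tested probes. Besides *Canx* the higher ones were the heavy chain gene *RT1-N2* (3.02, adjusted p = 0.0611), the immunoproteasome subunit *Psmb9* (1.27, adjusted p = 0.0895), the proteasome activator *Psme2* (1.94, adjusted p = 0.103) and the peptide-loading chaperone *Calr* (2.74, adjusted p = 0.116). *RT1-N2* was well above background on only 2 of the 3 arrays at 12 months and 1 of the 3 at 3 months, and *Calr* overlapped between the ages. The lower one, *RT1-M6-1*, had no 12-month array with signal well above background. The classical heavy chain genes differed by 0.09 for *RT1-A1* (adjusted p = 0.851), 0.12 for *RT1-A2* (adjusted p = 0.822) and -0.08 for *RT1-A3* (adjusted p = 0.863), and the other immunoproteasome subunits by -0.23 for *Psmb8* (adjusted p = 0.737) and -0.99 for *Psmb10* (adjusted p = 0.115), whose 12-month levels all lay below its 3-month levels. Those 5 genes were named after their values were seen. The median of the 36 genes was 0.35, with 24 positive and 12 negative. RT1 genes are close in sequence, and whether a probe also binds RNA of a neighbour gene was not tested.

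The calls in these pathways moved with single arrays. Together the 2 lists had 2 genes past the adjusted threshold, 0 when 12-month replicate 1, 12-month replicate 3, 3-month replicate 1 or 3-month replicate 3 was left out, 1 without 3-month replicate 2 and 8 without 12-month replicate 2. *Rfxank* and *Canx* each passed only in the last of these 6 fits, with an adjusted p of 0.0471 and 0.0442. Over all tested probes the fits made 208 to 2163 calls. On 12-month replicate 2, 26 of the 36 class I genes had their lowest 12-month level, and on 3-month replicate 3, 25 of 36 had their lowest 3-month level. How often these arrays were the lowest over all tested probes was not counted, so the counts are not read as particular to class I genes.

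Interferon gamma is known to raise both class I and class II genes through Jak kinases bound to its receptor. Of 31 listed genes of its signalling and response, 30 had a probe and 28 passed the filter. The adjusted threshold was passed by 1 of the 28 upwards and 1 downwards, against 8.37% of all tested probes. *Jak2*, one of these kinases, rose by 1.66 ± 0.27 (SE, adjusted p = 0.0193), reading 7.12, 7.66 and 7.13 at 3 months and 9.13, 8.73 and 9.05 at 12 months. *Socs3*, an inhibitor of Jak kinases, fell by 1.27 ± 0.26 (SE, adjusted p = 0.0368), reading 8.43, 8.02 and 7.72 at 3 months and 6.84, 6.87 and 6.66 at 12 months. Of the 6 fits that each left out 1 array, *Jak2* passed the adjusted threshold only without 12-month replicate 2 (1.78, adjusted p = 0.0254) or 3-month replicate 2 (1.84, adjusted p = 0.0284), and *Socs3* only without 12-month replicate 2 (-1.31, adjusted p = 0.0486).

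The study's threshold was passed upwards by *Jak2* and the interferon-induced GTPase *Igtp* (1.18, adjusted p = 0.0547) and downwards by 7 genes of the interferon list, 9 of 28 genes against 22.0% of all tested probes in either direction. Besides *Socs3* these were *Socs1* (-1.18), *Usp18* (-1.10), *Irf8*, *Cxcl9*, *Ifit1* and *Ido1*, with adjusted p between 0.0658 and 0.118. *Irf8*, *Cxcl9*, *Ifit1* and *Ido1* had no 12-month array with signal well above background. With the 3-month mean set against a 12-month floor, *Irf8* was 2.23-fold lower and *Ido1* 1.24-fold lower, with no fold for the other pair. The floor was the mean over the 12-month arrays of the higher of the lowest signal well above background and the gene's own signal. It is not a strict limit, because probes not well above background can read higher, as *RT1-O1* did at 5.64 on 12-month replicate 3. The median of the 28 genes was -0.38, with 10 positive and 18 negative.

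Macrophages and dendritic cells are the islet cells best known for class II, and their markers were set beside the class II chains array by array. Of 24 listed markers 22 had a probe, 19 passed the filter and 2 were well above background on no array. None of the 19 passed the adjusted or the study's threshold, against 8.37% and 22.0% of all tested probes. Their mean log2 level was 10.4, 9.62 and 10.8 at 3 months and 10.4, 9.59 and 9.49 at 12 months on replicates 1, 2 and 3, a range of 9.62 to 10.8 against 9.49 to 10.4. Replicate 1 was the highest 12-month array for 15 of these 19 markers and for 5 of the 6 class II chain and DM genes. Replicate 2 was the lowest 3-month array for 17 of the 19 and for 5 of the 6. At 12 months replicate 2 was the lowest array for 5 of the 6 class II genes but for 10 of the 19 markers, whose mean was lowest on replicate 3. Replicate 1 was also the highest 12-month array for 18 of the 28 interferon genes and 5 of 8 endothelial markers. It was so for 14 of the 36 class I genes and 2 of 9 acinar markers. These orders were not counted over all tested probes, so they are not read as particular to macrophages or class II genes. The part of these cells in the levels of the class II genes was not tested.

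Among the leading markers, the common leukocyte antigen *Ptprc* differed by -0.01 (adjusted p = 0.993), the macrophage proteins *Cd68* by -0.18 (adjusted p = 0.704) and *Aif1* by -0.88 (adjusted p = 0.254), and the macrophage growth factor receptor *Csf1r* by -1.17 (adjusted p = 0.182). Over the 19 markers the median difference was -0.41, with 2 positive and 17 negative. Taken relative to the mean of these markers on the same array, a measure added after the data were seen and given without a test, the differences were 0.78 for *RT1-Da*, 0.22 for *RT1-Ba*, -0.39 for *RT1-Bb*, 0.22 for *RT1-Db1*, 0.24 for *RT1-DMa* and -0.28 for *RT1-DMb*. They were 1.39 for *B2m*, 0.32 for *Tap1*, 2.45 for *Tap2* and 2.18 for *Cd74*. On that scale the ages did not overlap for 5 of the 10 genes, with *RT1-Da*, *B2m*, *Tap1* and *Tap2* higher and *RT1-DMb* lower at 12 months, against 13.4% of all tested probes. Subtracting the marker mean itself lowered that share from 39.1%, so the 5 genes are not read as an excess. The marker mean was lower at 12 months, which by itself raises the difference of every gene on this scale. *RT1-Da* lay between 3.12 and 3.46 at 3 months and between 3.49 and 4.43 at 12 months, a narrow gap. *Tap1* lay between 0.76 and 0.81 at 3 months and between 0.96 and 1.18 at 12 months.

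Markers of other cells were read beside these values. Of 20 lymphocyte markers 18 had a probe and 14 passed the filter. Their mean log2 level was 7.55 to 7.81 at 3 months and 6.85 to 7.72 at 12 months, with a median difference of -0.30. *Cd3e*, a subunit of the T cell receptor complex, differed by 0.00 (adjusted p = 0.998), and *Cd4* and *Ncr1* were well above background on no array. *Nkg7*, a granule protein of cytotoxic cells, fell by 1.59 on the log2 scale (adjusted p = 0.0458, limma). It was the only lymphocyte marker past the adjusted threshold, 1 of 14 against 8.37% of all tested probes. The T cell coreceptor chain *Cd8b* (-1.34, adjusted p = 0.0999) passed the study's threshold, as did *Nkg7*, 2 of 14 against 22.0% of all tested probes. Of 14 endothelial markers 8 had a probe and all 8 passed the filter. Their mean was 9.94 to 10.2 at 3 months and 8.98 to 9.46 at 12 months, so that the ages were apart and the older one was lower. Gene by gene, 5 lay wholly lower and 1 wholly higher at 12 months, against 39.1% of all tested probes in either direction. The study's threshold was passed by 1 upwards and 3 downwards, against 22.0% of all tested probes, and the adjusted one by 1 downwards, against 8.37%. *Pecam1*, an adhesion protein of endothelium, went the other way, with a difference of 1.23 (adjusted p = 0.124), past the study's threshold. *Cldn5*, a tight junction protein, fell by 2.31 on the log2 scale (adjusted p = 0.0271, limma), and *Tek* (-1.14, adjusted p = 0.0720) and *Cdh5* (1.54-fold lower against the floor used for *Irf8*, adjusted p = 0.0515) passed the study's threshold downwards. *Nkg7*, *Cd8b*, *Cldn5*, *Tek*, *Cdh5* and the undetected pair were named after their values were seen. The parts of lymphocytes and endothelium in the class I and class II levels were not tested.

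**Figure D4:**
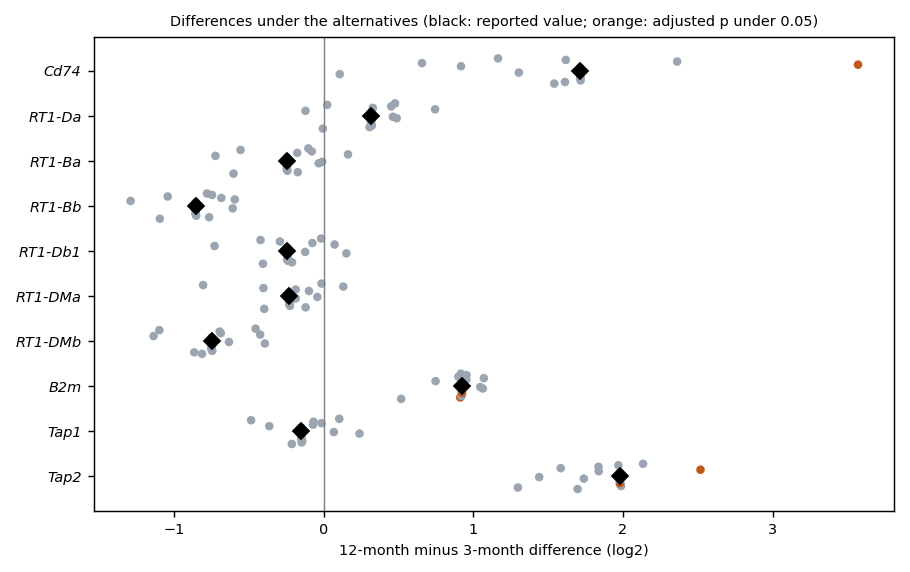
Difference between the ages (12-month minus 3-month, log2, horizontal axis) of the 10 antigen presentation genes as reported (black diamonds) and under each of 17 or 18 alternative settings (grey points; orange where the adjusted p was under 0.05; vertical offsets only separate points). *B2m* stayed between 0.52 and 1.07 and *Tap2* between 1.30 and 2.52, while *RT1-Da*, *RT1-Ba*, *RT1-Db1*, *RT1-DMa* and *Tap1* fell on both sides of 0.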

How the data were processed

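Islet RNA was hybridised to 1-colour Arraystar/Agilent arrays, 3 for rats of 3 months and 3 for rats of 12 months, with the age as the labels give it. Per the file headers, the deposited scanner files give spot intensity from Agilent Feature Extraction 11.0.1.1, background-subtracted and not normalized between arrays. The authors also deposited a quantile-normalized log2 table of part of the probes, used as an alternative. The genes and gene lists were chosen with earlier results of these data known.

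Intensities were put on the log2 scale, averaged over the spots of a probe without an outlier mark, and quantile normalized over 24684 non-control probes. Probes well above background on at least 3 of 6 arrays were kept, and 17941 were tested two-sided, without a block, by lmFit and eBayes of limma 3.58.1 (R 4.3.3), and p was adjusted by Benjamini-Hochberg. Exact permutation tests had 20 arrangements. Accessions were matched without version to a RefSeq table of GRCr8, for 14274 of 15321 mRNA probes. The array design uses another build, so the coordinates given are those of the RefSeq promoters only. No probe was saturated.

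Besides the 10 members, the rule named the genes of the class II, class I and interferon lists past either threshold, *Ciita*, the RFX subunits and *Nlrc5* (no matched probe), 7 leading markers of other cells (*Cd79a* had no matched probe), and the 5 profiles closest to *Cd74*. The likeness to *RT1-Da*, the levels relative to the macrophage markers and the alternatives for genes other than the members were added after the data were seen. Alternatives were a 75th percentile shift, normexp with an offset of 50 on median signals, the authors' log2 table, no filter or a filter on all 6 arrays, robust variances with an intensity trend, replicate blocks, 4 arrays whose names share an ending, plain and paired t-tests, the mean of a gene's probes, and leaving out each array. The fit was tested on simulated data. A gene of the interferon list is not reported here by name. Arrays have no read depth, and their number limits the precision.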

Additional observations from a re-analysis of the deposited data

How the results depend on the processing

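Of the 10 genes, 0 passed the adjusted threshold as reported, 1 with normexp background correction, 2 with the filter on all 6 arrays, 2 with an intensity trend and robust variances, and 0 to 2 when 1 array was left out (2, *Cd74* and *Tap2*, without 12-month replicate 2). Of all probes 1502 of 17941 passed as reported, 1877 with normexp, 1700 of 13494 with that filter, 2017 of 17876 with the trend and 2163 without 12-month replicate 2. At the study's threshold 1 gene became 2 with the 75th percentile shift, 2 with only the 4 arrays of like names (a shared ending), 0 with the paired t-test, and 1 to 3 when 1 array was left out (3 without 12-month replicate 1, 2 without 12-month replicate 2 or 3). All probes gave 3953 as reported, 4921 with the shift and 3226 without 12-month replicate 1. Of the class II and class I pathway genes, 2 at the adjusted threshold became 1 with normexp, 4 with the trend, 0 with the 4 like-named arrays, 1 with the methods' t-test, 0 with the paired t-test, and 0 to 8 when 1 array was left out. Over all probes the methods' t-test gave 435 calls. The 4 arrays gave 0 calls and the paired t-test 1, so the losses with them say nothing of the pathway genes. At the study's threshold 8 became 5 with those 4 arrays, 5 by the methods' t-test and 3 with the paired t-test. Leaving out 1 array gave 7 to 17 (17 without 12-month replicate 2). Over all probes 3953 became 2604 with those 4 arrays, 2735 by the methods' t-test and 1552 with the paired t-test. Leaving out 1 array gave 3122 to 4885 of all probes (4885 without 12-month replicate 2).

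For arrays of the same number, deviations from the group means correlated over the kept probes at -0.01, -0.31 and -0.26. With 3 arrays of each age this cannot settle whether they were paired, and 1 array carries no number in the labels. The SE of the difference was 0.58 by the methods' t-test and 0.31 by the paired t-test for *RT1-Da*. For *RT1-Bb* it was 0.48 and 0.62. With a replicate block of 3 pairs, 0 pathway genes and 97 of all probes passed the adjusted threshold. In the numbered pairs alone, 2 members and 3 pathway genes passed the study's threshold, among 2775 probes in all, and 0 probes of any kind passed the adjusted one.

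Directions turned for *RT1-Da* (-0.0053 with the 75th percentile shift, -0.12 to 0.74 leaving out 1 array), *RT1-Ba* (-0.72 to 0.16), *RT1-Db1* (0.15 in the numbered pairs, -0.73 to 0.073), *RT1-DMa* (-0.81 to 0.13) and *Tap1* (0.24 in the numbered pairs, 0.068 with the 4 arrays, -0.48 to 0.10). They also turned for *Ptprc* (0.57 in the numbered pairs, 0.25 with the 4 arrays, -0.40 to 0.29), *Cd68* (0.20 in the numbered pairs, -0.32 to 0.085) and *Cd3e* (0.088 with normexp, 0.0020 in the authors' table, 0.54 in the numbered pairs, 0.084 with the 4 arrays, -0.45 to 0.33). None of these differences passed the adjusted threshold under any setting; the cause was not tested. The median of the 10 genes was 0.13 in the numbered pairs and -0.45 to 0.12 leaving out 1 array. *Cd74*, *RT1-Bb*, *RT1-DMb*, *B2m* and *Tap2* kept their sign in all alternatives run.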
